A study of Mus musculus with 16 samples.

Results

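The genes described here are the core enzymes and cofactors that write, copy and remove cytosine methylation, namely Dnmt1, Uhrf1, Hells, Lig1, Dnmt3a, Dnmt3b, Tet1, Tet2, Tet3 and Tdg. They were chosen by symbol, matched through the mouse annotation to the gene identifiers of the table, and all 10 were found among its 54453 genes. The lines were immortalised mouse embryonic fibroblasts (MEFs) from 2 sibling C57BL/6J embryos taken at E13.5. They comprised the parental lines MEF-1 (male) and MEF-2 (female) and 7 clonal lines of each, every clonal line grown from 1 sorted cell. No line carried an engineered allele or received a treatment, and all had been passaged through crisis, so that they were not primary fibroblasts. Total RNA without ribosomal RNA was sequenced from 1 library per line. Each value is a "regularised log" (rlog) value, a log2 expression level scaled for library size, in which weakly measured differences are pulled towards the mean of that gene. The 7 clonal lines of a parental line served as its replicates, so that p-values measure the spread between clonal lines, and a parental line on its own had none. Each set came from 1 embryo. Embryo, sex and the immortalisation of each parental line therefore differ together between the sets and cannot be told apart.

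Methylation of CpG sites is copied after DNA replication, when Uhrf1 recognises hemimethylated DNA and recruits the maintenance methyltransferase Dnmt1. Hells, an ATP-dependent remodeller, opens nucleosomal DNA for this step, and Lig1, the ligase that joins Okazaki fragments, carries a methylated lysine that Uhrf1 can bind. Dnmt3a and Dnmt3b methylate DNA that was not methylated before. The dioxygenases Tet1, Tet2 and Tet3 oxidise 5-methylcytosine, and the glycosylase Tdg excises the further oxidised bases, which are then repaired. Mki67, the gene of the Ki-67 antigen, and Pcna, the sliding clamp of the replication fork, are used as RNA markers of proliferating cells. No growth rate or cell cycle profile was analysed here, and in bulk RNA a smaller share of cycling cells and less RNA per cycling cell cannot be told apart.

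The promoters are shown first, with the E2F words that their windows held. E2F factors are transcription factors known for timing the expression of S-phase genes. RefSeq gave 17 transcription starts for the 10 members (GRCm38.p6, the coordinates of mm10), each with a window of 300 bases, 250 before and 50 after the start. The words TTTCCCGC, TTTCGCGC, TTTGCCGC and TTTGGCGC were searched on both strands, and a gene was counted once however many matches it held. They stood in at least 1 window of Dnmt1, Uhrf1, Hells and Lig1, and in none of Dnmt3a, Dnmt3b, Tet1, Tet2, Tet3 and Tdg. In the 250 bases before the start alone they stood in 3 of 10 members, since the word of Lig1 lies after its start. The first 4 are also the members called on Mki67 below. Members and words were chosen with earlier results of these data known, so this match is no independent support, and it was not tested. It also changes with the fit. With genes taken relative to their chromosome, Tdg was called too, and without MEF-1 clonal line 5 only Uhrf1 was. All 28 mitosis genes tested rose with Mki67, and 1 of 24 with a window held such a word. Over all genes, 2.6% of 27025 held such a word in at least 1 window, and 2.26% of all 32851 windows did. Such a match is a description of letters and not evidence of a bound factor. The stretch of Uhrf1 lies on the plus strand at chr17:56304063-56304312, the 250 bases before its second RefSeq start, with the word in capitals 185 bases before that start.
Uhrf1: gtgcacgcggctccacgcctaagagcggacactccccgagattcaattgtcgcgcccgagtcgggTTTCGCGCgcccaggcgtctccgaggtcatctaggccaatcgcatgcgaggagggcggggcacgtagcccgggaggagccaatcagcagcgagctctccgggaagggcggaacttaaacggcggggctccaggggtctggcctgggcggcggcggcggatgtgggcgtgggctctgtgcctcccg
Shorter stretches, with the word in capitals, are given for the other 3 members, where the window overlaps annotated exons. That of Hells lies on the plus strand at chr19:38930917-38930946, its word starting 62 bases before the start. That of Lig1 lies on the plus strand at chr7:13278841-13278870, with the word from base 27 after the second RefSeq start, and exons of Zswim9 run on the opposite strand just upstream. Both stretches of Dnmt1 lie on the minus strand around its RefSeq start at 20952623, at chr9:20952824-20952853 (219 bases before the start) and at chr9:20952574-20952601 (from base 34 after it). In the stretch of Lig1 and the first of Dnmt1 the capitals GCGCGAAA are TTTCGCGC read on the opposite strand.
Hells: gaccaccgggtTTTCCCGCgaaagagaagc
Lig1: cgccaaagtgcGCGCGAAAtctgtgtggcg
Dnmt1 before the start: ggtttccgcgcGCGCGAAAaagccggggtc
Dnmt1 after the start: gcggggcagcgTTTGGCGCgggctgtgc
The promoter of Dnmt3b, which did not follow Mki67, is given for comparison and held none of these words. It lies on the plus strand at chr2:153649199-153649448.
Dnmt3b: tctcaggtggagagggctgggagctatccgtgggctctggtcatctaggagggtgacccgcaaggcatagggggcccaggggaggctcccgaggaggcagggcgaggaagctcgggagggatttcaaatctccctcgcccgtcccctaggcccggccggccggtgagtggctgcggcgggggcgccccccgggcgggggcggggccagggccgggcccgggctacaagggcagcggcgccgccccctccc

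Before the members are compared, the lines themselves differed in ways that touch them. The 12 fibroblast markers were all above an rlog average of 0, and their mean level ranged from 15.81 to 16.75 over the 16 lines. Muscle markers averaged between -0.52 and -0.14, with Myod1, Myog, Myf5 and Ckm at or below 0, and blood markers between 1.38 and 2.08, with Adgre1, Hba-a1 and Gata1 at or below 0. Epithelial (2.62 to 3.29), endothelial (1.98 to 2.69), pluripotent (1.05 to 1.69) and neural (5.51 to 7.04) markers stayed below the fibroblast list in every line. Of these, 5 of 6 epithelial, 5 of 5 endothelial, 3 of 6 pluripotent and 4 of 5 neural markers also averaged above 0. An average above 0 therefore does not single out fibroblasts. Single genes crossed the order of the lists, with neural Map2 at 12.08, epithelial Cdh1 at 7.44 and fibroblast Thy1 at 4.74. The median of whole chromosomes moved with the lines. On chromosome 12, which holds Dnmt3a, it lay between -0.31 and -0.36 in the MEF-1 clonal lines and between 0.28 and 0.33 in the MEF-2 clonal lines, relative to the mean of all 14. On chromosome 19, which holds Hells, the order was opposite, from 0.14 to 0.21 in MEF-1 and from -0.24 to -0.17 in MEF-2. Single lines stood apart on chromosome 17 (Uhrf1; -0.26 in MEF-1 clonal line 1), chromosome 2 (Dnmt3b and Pcna; -0.27 in MEF-2 clonal line 3), chromosome 10 (Tet1 and Tdg; 0.11 in MEF-2 clonal line 4) and chromosome 7 (Lig1 and Mki67; -0.15 and -0.16 in MEF-1 clonal lines 1 and 3). For this reason several comparisons were also made with every gene taken relative to the median of its chromosome in that line. These were the set difference, the relations to Mki67 and Pcna, the position of the parental lines and the spread. Slopes of single sets and their difference, levels per kilobase and likeness between genes were computed on the deposited values only.

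Copying enzymes and their cofactors were higher in MEF-2 than in MEF-1 clonal lines, Uhrf1 most of all. Uhrf1 (ENSMUSG00000001228, chr17:56303321-56323486, plus strand), the reader of hemimethylated CpGs, ranged from 10.65 to 12.15 in the MEF-1 clonal lines with a median of 11.42. Its MEF-2 clonal lines lay between 11.99 and 12.89, with a median of 12.65. Of the MEF-2 lines, 5 lay above every MEF-1 line, and 6 MEF-1 lines lay below every MEF-2 line. MEF-1 clonal line 5 held the highest value of its set and clonal line 1 the lowest. The difference, MEF-2 minus MEF-1, was 1.15 ± 0.20 on the log2 scale (SE, limma, 7 and 7 lines, adjusted p = 0.000287).

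Dnmt1 (ENSMUSG00000004099, chr9:20907209-20959888, minus strand) was higher in MEF-2 by a smaller amount. Its values ran from 13.15 through a median of 13.48 to 14.04 in MEF-1 and from 13.71 through 13.87 to 14.02 in MEF-2. No MEF-2 line lay above the highest MEF-1 line, which was again clonal line 5, and 5 MEF-1 lines lay below every MEF-2 line. The difference was 0.29 ± 0.11 (limma adjusted p = 0.0343). This call was lost when any 1 of 8 of the 14 lines was left out, at an adjusted p of 0.0697 without MEF-2 clonal line 2. It was also lost without a filter on low values (limma adjusted p = 0.0541) and with the parental lines counted (0.24, adjusted p = 0.0703).

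Hells (ENSMUSG00000025001, chr19:38930915-38971051, plus strand) lay between 10.78 and 11.84 in MEF-1 with a median of 11.14, and between 11.50 and 11.88 in MEF-2 with a median of 11.77. Only 1 MEF-2 line exceeded every MEF-1 line, and 6 MEF-1 lines were below every MEF-2 line. It was higher in MEF-2 by 0.49 ± 0.13 (limma adjusted p = 0.00531), although its chromosome was lower there, and relative to the median of chromosome 19 the difference was 0.86 ± 0.13 (adjusted p = 7.12e-05). On that scale its sets did not overlap, with a highest MEF-1 value of 11.66 and a lowest MEF-2 value of 11.71. The share of all genes without overlap was not computed on that scale.

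Lig1 (ENSMUSG00000056394, chr7:13277283-13311433, plus strand) ranged from 10.84 to 11.82 in MEF-1 with a median of 11.03, and from 11.68 to 12.08 in MEF-2 with a median of 11.92. Apart from MEF-1 clonal line 5, every MEF-1 line was below every MEF-2 line. The difference was 0.78 ± 0.13 (limma adjusted p = 0.00018).

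**Figure D1:**
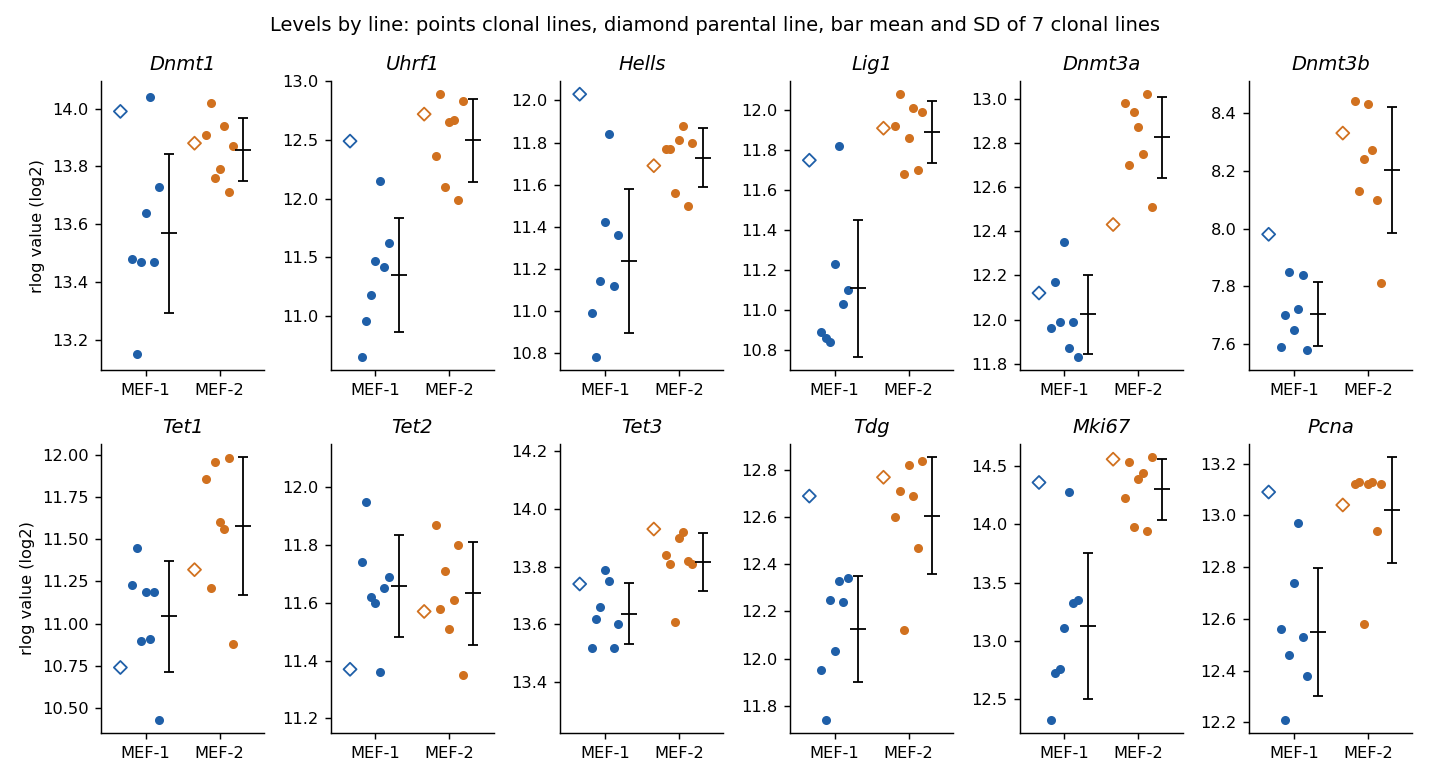
Level of each member and of Mki67 and Pcna (y axis, rlog, log2) in the MEF-1 and MEF-2 lines (x axis). Filled points are clonal lines, open diamonds the parental lines and bars the mean and SD of 7 clonal lines. Dnmt3a is the 1 member in which the 2 sets of clonal lines did not overlap, and MEF-1 clonal line 5 lies above the rest of its set for Uhrf1, Dnmt1, Hells and Lig1.

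Among the de novo enzymes, Dnmt3a (ENSMUSG00000020661, chr12:3806007-3914443, plus strand) separated the sets completely. It lay between 11.83 and 12.35 in the MEF-1 clonal lines with a median of 11.99, and between 12.51 and 13.02 in the MEF-2 clonal lines with a median of 12.87. As deposited, it was the only member whose sets did not overlap, against 21.3% of the 21313 genes tested in either direction and 9.91% higher in MEF-2. The difference was 0.80 ± 0.09 (limma adjusted p = 4.34e-06). Relative to the median of chromosome 12, the values ran from 12.16 to 12.68 in MEF-1 and from 12.18 to 12.69 in MEF-2, the sets overlapped, and the difference was 0.16 ± 0.10 (limma adjusted p = 0.174). The MEF-2 parental line, at 12.43, was below all 7 of its clonal lines with its chromosome at 0.27.

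Dnmt3b (ENSMUSG00000027478, chr2:153649450-153687730, plus strand) ranged from 7.58 to 7.85 in MEF-1 with a median of 7.70 and from 7.81 to 8.44 in MEF-2 with a median of 8.24. Of the MEF-2 lines, 6 lay above every MEF-1 line, the exception being clonal line 7. The difference was 0.50 ± 0.10 (limma adjusted p = 0.00089). Antisense transcripts are annotated over Dnmt3a and Dnmt3b, and Dnmt3a has a processed copy. How reads were divided among these is not given in the sources used here.

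**Figure D2:**
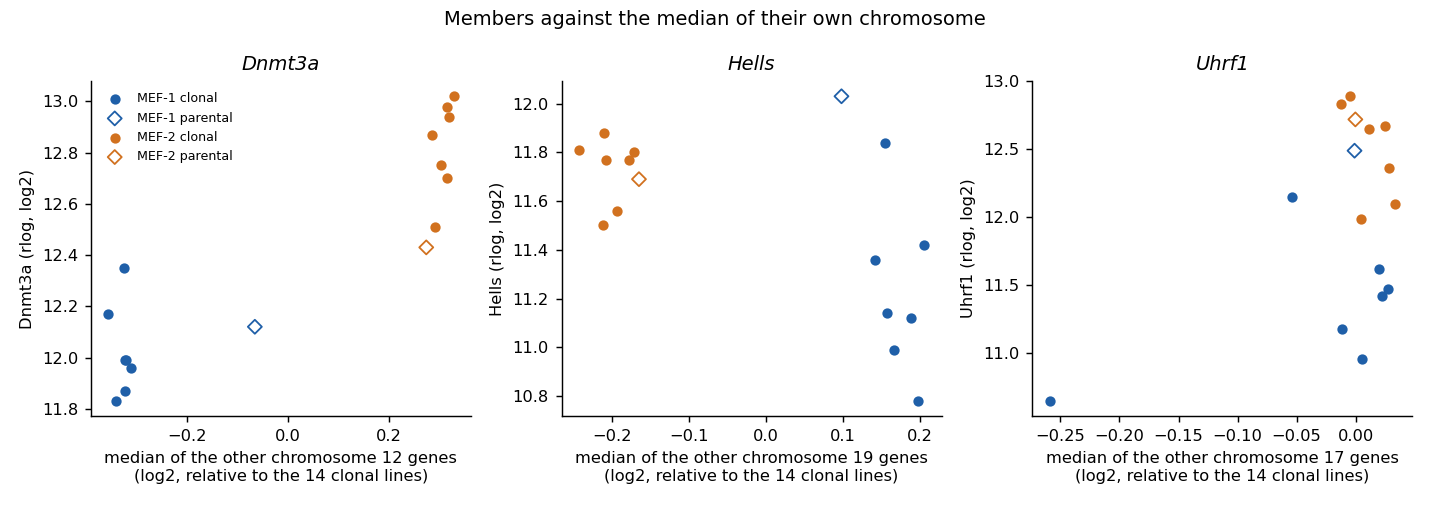
Level of Dnmt3a, Hells and Uhrf1 (y axis, rlog, log2) against the median of the other genes of its chromosome in the same line (x axis, log2, relative to the 14 clonal lines), with clonal lines as filled points and parental lines as open diamonds. Chromosome 12 lies below 0 in all MEF-1 clonal lines and above 0 in all MEF-2 clonal lines, in the same order as Dnmt3a, and chromosome 19 lies in the order opposite to Hells.

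Of the removing enzymes, Tet1, Tet3 and Tdg were higher in MEF-2 and Tet2 was not called. Tet1 (ENSMUSG00000047146, chr10:62804570-62908996, minus strand), a dioxygenase with a CXXC domain, ranged from 10.43 to 11.45 in MEF-1 with a median of 11.19 and from 10.88 to 11.98 in MEF-2 with a median of 11.60. Of the MEF-2 lines, 5 were above every MEF-1 line and only 1 MEF-1 line was below every MEF-2 line. The difference was 0.53 ± 0.18 (limma adjusted p = 0.0231), and clonal line 7 was the lowest of both sets. Tet3 (ENSMUSG00000034832, chr6:83362373-83459084, minus strand) ran from 13.52 through a median of 13.62 to 13.79 in MEF-1 and from 13.61 through 13.82 to 13.92 in MEF-2. Here 6 MEF-2 lines lay above every MEF-1 line, with clonal line 3 below, and the difference was 0.18 ± 0.06 (limma adjusted p = 0.02).

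Tet2 (ENSMUSG00000040943, chr3:133463679-133545139, minus strand) was the 1 member not called between the sets. It lay between 11.36 and 11.95 in MEF-1, with a median of 11.65, and between 11.35 and 11.87 in MEF-2, with a median of 11.61, so that the ranges nearly coincided. Its difference was -0.03 ± 0.09 (limma adjusted p = 0.832). Tdg (ENSMUSG00000034674, chr10:82629828-82650799, plus strand), the glycosylase, ranged from 11.74 to 12.34 in MEF-1 with a median of 12.24 and from 12.12 to 12.84 in MEF-2 with a median of 12.69. All MEF-2 lines but clonal line 3 were above every MEF-1 line, and the difference was 0.48 ± 0.12 (limma adjusted p = 0.00341). Tet2, Tet3 and Tdg each share part of their locus with another annotated transcript, and Tdg has a pseudogene, so that shared reads cannot be told apart for them.

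Over the list, 9 of 10 members were called and all 9 were higher in MEF-2, with a median difference of 0.50. Of all 21313 genes tested, 48.3% were called, 22.6% as higher and 25.7% as lower in MEF-2, and their median difference was -0.02. With each gene relative to its chromosome, 8 of 10 members were called, against 49.2% of all genes, and Dnmt3a joined Tet2 among those not called. Both proliferation markers differed in the same direction. Mki67 was higher in MEF-2 by 1.18 ± 0.23 (limma adjusted p = 0.000638) and Pcna by 0.47 ± 0.11 (limma adjusted p = 0.00291).

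Levels of different genes were compared per kilobase of the longest coding transcript, as log2 level minus log2 length. Dnmt1 stood highest at 11.02 ± 0.28 (SD, n = 7) in MEF-1 and 11.30 ± 0.11 in MEF-2. Dnmt3b stood lowest, at 5.59 ± 0.11 and 6.09 ± 0.22. In MEF-1, the order below Dnmt1 was Tdg (10.32 ± 0.22) and Tet3 (10.19 ± 0.11), Uhrf1 (9.51 ± 0.48) and Lig1 (9.44 ± 0.35), Dnmt3a (8.75 ± 0.18), Hells (8.68 ± 0.34) and Tet2 (8.46 ± 0.18), and then Tet1 (7.20 ± 0.33). Tdg and Tet3, Uhrf1 and Lig1, Dnmt3a and Hells, and Hells and Tet2 each differed by less than the larger of their SDs. In MEF-2, Uhrf1 (10.66 ± 0.36) stood between Tdg (10.80 ± 0.25) and Tet3 (10.37 ± 0.10), and its gap to each was within its own SD. Tet3 and Lig1 (10.23 ± 0.16) also differed there by less than the larger of their SDs. Exon length in place of transcript length left Dnmt1 first and Dnmt3b last in both sets. It placed Hells above Dnmt3a in both and changed further ranks in MEF-2.

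In MEF-1, the parental line lay outside the range of its clonal lines for some members, each time above it. For 4 of 10 members, namely Uhrf1 (12.49), Hells (12.03), Tdg (12.69) and Dnmt3b (7.98), it was above all 7 clonal lines, as it was for Mki67 (14.36) and Pcna (13.09). Over all genes tested, 38.3% had the MEF-1 parental line outside the range of its clonal lines and 19.4% had it above. Relative to the chromosome, it was also just above all 7 for Dnmt1 (14.03, highest clonal line 14.02) and Lig1 (11.76 and 11.74). The share of all genes was not computed on that scale. In MEF-2 the parental line was outside for 2 members, against 32.4% of all genes. Tet3 was above its clonal lines at 13.93, and Dnmt3a was below them as given above. With 1 parental library per set, these differences have no replicate check.

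The spread among clonal lines was also unequal. Across the 7 MEF-1 clonal lines, the SD was largest for Uhrf1 (0.48), Lig1 (0.35), Hells (0.34) and Tet1 (0.33) and smallest for Tet3 and Dnmt3b (both 0.11). In MEF-2 it was largest for Tet1 (0.41) and Uhrf1 (0.36) and smallest for Tet3 (0.10) and Dnmt1 (0.11). The median SD over the 10 members was 0.25 in MEF-1 and 0.18 in MEF-2, beside 0.22 and 0.19 over all genes tested. Mki67 itself ranged from 12.32 to 14.28 in MEF-1 with a median of 13.11, and from 13.94 to 14.58 in MEF-2 with a median of 14.39.

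To ask which members followed proliferation genes among clonal lines of the same origin, each gene was fitted on Mki67 centred within its set, with 1 slope for both sets. The 4 members called were the copying enzymes and cofactors, all with a positive slope, where 4.16% of all genes tested were called, 3.13% with a positive and 1.03% with a negative slope. Uhrf1 rose by 0.84 ± 0.08 per log2 unit of Mki67 (limma adjusted p = 1.36e-05). Lig1 rose by 0.51 ± 0.07 (limma adjusted p = 0.000587), Hells by 0.47 ± 0.08 (0.00323) and Dnmt1 by 0.35 ± 0.08 (0.0189). Only Uhrf1 kept its call without MEF-1 clonal line 5, the line with the highest Mki67 of its set. Without that line the slope was 0.37 for Lig1 (adjusted p = 0.0557), 0.41 for Hells (0.0806) and 0.28 for Dnmt1 (0.194), and 3.81% of all genes were called. Without MEF-1 clonal line 1, the line with the lowest Mki67, all 4 were called, against 2.52% of all genes. Dnmt1 was also not called with array weights (0.33, adjusted p = 0.0592).

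The other 6 members were not called on Mki67. Tdg had a slope of 0.32 ± 0.11 (limma adjusted p = 0.111) and Tet3 of 0.10 ± 0.06 (0.383). Dnmt3b was close to 0, at -0.01 ± 0.12 (0.967). The slopes of Dnmt3a (-0.17 ± 0.10, adjusted p = 0.364), Tet2 (-0.26 ± 0.08, 0.0788) and Tet1 (-0.40 ± 0.18, 0.247) were below 0. Relative to the median of each gene's chromosome, 5 members were called, against 5.87% of all genes, Tdg being added at 0.37 ± 0.10 (limma adjusted p = 0.0383). With the parental lines counted in their sets, Tdg (0.37, adjusted p = 0.00952) and Tet2 (-0.25, adjusted p = 0.0124) were called as well. In that fit 2502 of 21312 genes were called, against 887 in the main fit.

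**Figure D3:**
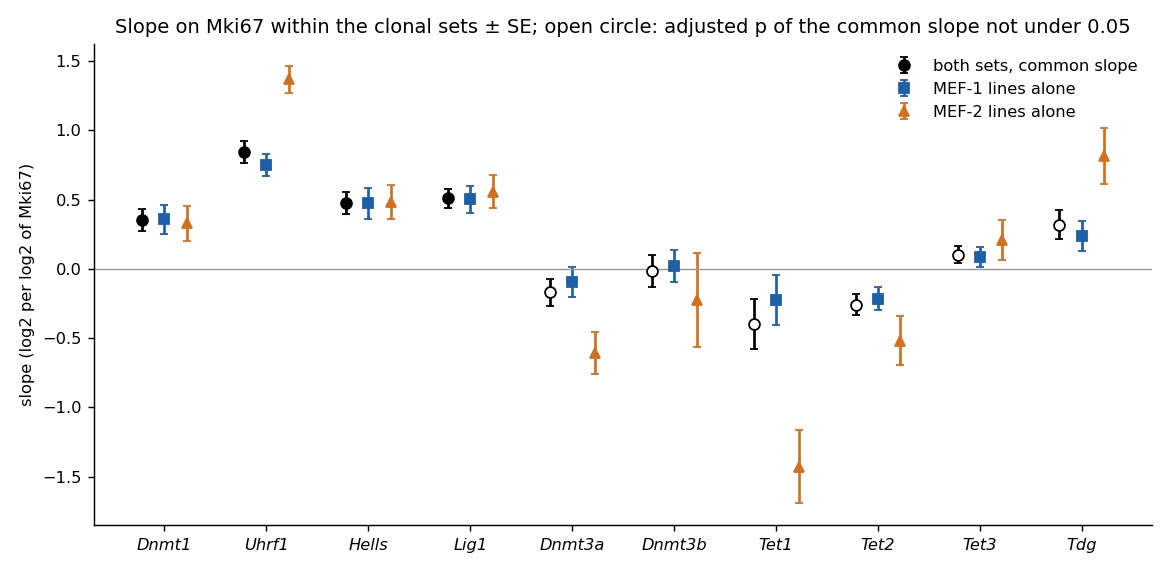
Slope of each member on Mki67 among clonal lines (y axis, log2 per log2 unit of Mki67; bars are SE), fitted over both sets (circles, filled where the adjusted p is under 0.05) and in MEF-1 (squares) and MEF-2 (triangles) alone. Uhrf1, Lig1, Hells and Dnmt1 have filled circles above 0, and for Tet1 the MEF-2 value of -1.43 lies far below the MEF-1 value of -0.22.

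Within each set, the relation of every member to Mki67 and to Pcna was also tested by exact permutation, which gave 40 relations. By Pearson's r, 7 of 40 had an adjusted p under 0.05, and by Spearman's rho 4 did. Relative to each gene's chromosome these were 3 and 0. Uhrf1 in both sets and Tdg in MEF-2, with Mki67, stayed under the threshold by r (exact permutation test, adjusted p = 0.0132 each). The calls of Lig1 with Mki67 in both sets and with Pcna in MEF-2, and of Tet1 with Mki67 in MEF-2, then stood at an adjusted p of 0.05, not under it, and the 4 by rank at 0.082. Correlations were high for many genes in so few lines. The median absolute r with Mki67 over 15791 genes was 0.396 in MEF-1 and 0.584 in MEF-2. Uhrf1 followed Mki67 in both sets, with r = 0.977 in MEF-1 (exact permutation p = 0.000794, adjusted 0.0159, rho = 0.964, p = 0.00278) and r = 0.993 in MEF-2 (exact p = 0.000595, adjusted 0.0159, rho = 0.964, p = 0.00278). Without the 2 lines farthest from the median of Mki67, r was 0.915 and 0.978. Lig1 had r = 0.908 in MEF-1 (exact permutation p = 0.00873, adjusted 0.0499, rho = 0.75, p = 0.0663) and 0.922 in MEF-2 (exact p = 0.00675, adjusted 0.0499, rho = 0.821, p = 0.0341). It fell to 0.734 and 0.613 without those 2 lines, so that its relation rests on them in part.

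Hells and Dnmt1 had positive but uncalled correlations with Mki67. That of Hells was 0.867 in MEF-1 (exact permutation p = 0.0157, adjusted 0.0561, rho = 0.786, p = 0.048) and 0.881 in MEF-2 (exact p = 0.0196, adjusted 0.0561, rho = 0.714, p = 0.0881). Without the 2 farthest lines, MEF-2 clonal lines 3 and 6, the latter was 0.126, and the relation in MEF-2 rests on these lines. Dnmt1 had r = 0.806 in MEF-1 (exact permutation p = 0.0425, adjusted 0.0931, rho = 0.714, p = 0.0881) and 0.767 in MEF-2 (exact p = 0.0518, adjusted 0.0994, rho = 0.714, p = 0.0881), with 0.735 and 0.253 without the farthest lines.

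Tet1 ran opposite to Mki67 in MEF-2, where the 7 lines stood in exactly reversed order as deposited. Relative to the chromosome, clonal line 4 (11.46) came below clonal line 5 (11.57), and the order was no longer exact (rho = -0.929, exact permutation p = 0.00675, adjusted 0.082). Clonal line 6 had the lowest Mki67 (13.94) and the highest Tet1 (11.98), and clonal line 7 the highest Mki67 (14.58) and the lowest Tet1 (10.88). Its r was -0.90 (exact permutation p = 0.00853, adjusted 0.0499, rho = -1, p = 0.000397, adjusted 0.0159), and -0.94 without the 2 farthest lines. In MEF-1 it was -0.425 (exact permutation p = 0.331, adjusted 0.414, rho = -0.643, p = 0.139). Dnmt3a also ran opposite to Mki67 in MEF-2 by rank, with rho = -0.964 (exact permutation p = 0.00278, adjusted 0.0278) and r = -0.861 (exact p = 0.0135, adjusted 0.0561), and -0.941 without the 2 farthest lines. Its r in MEF-1 was -0.326 (exact permutation p = 0.474, adjusted 0.575, rho = -0.429, p = 0.354). Tdg rose with Mki67 in MEF-2, with r = 0.844 (exact permutation p = 0.00853, adjusted 0.0499, rho = 0.857, p = 0.0238), and r = 0.652 without the 2 farthest lines.

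Whether a slope on Mki67 differed between the sets was tested directly, on the deposited values and not relative to the chromosome. None of the 10 members was called by limma, where 0.235% of all genes were, 0.141% steeper and 0.0938% less steep in MEF-2. At an unadjusted p under 0.05 there were 3 members, against 14% of all genes. The slope of Uhrf1 was 0.75 ± 0.08 in MEF-1 and 1.37 ± 0.10 in MEF-2, a difference of 0.62 ± 0.16 (limma adjusted p = 0.122). For Tet1 the slopes were -0.22 ± 0.18 and -1.43 ± 0.26, a difference of -1.20 ± 0.41 (limma adjusted p = 0.22). Those of Tdg were 0.24 ± 0.11 and 0.81 ± 0.20, a difference of 0.58 ± 0.27 (limma adjusted p = 0.353).

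**Figure D4:**
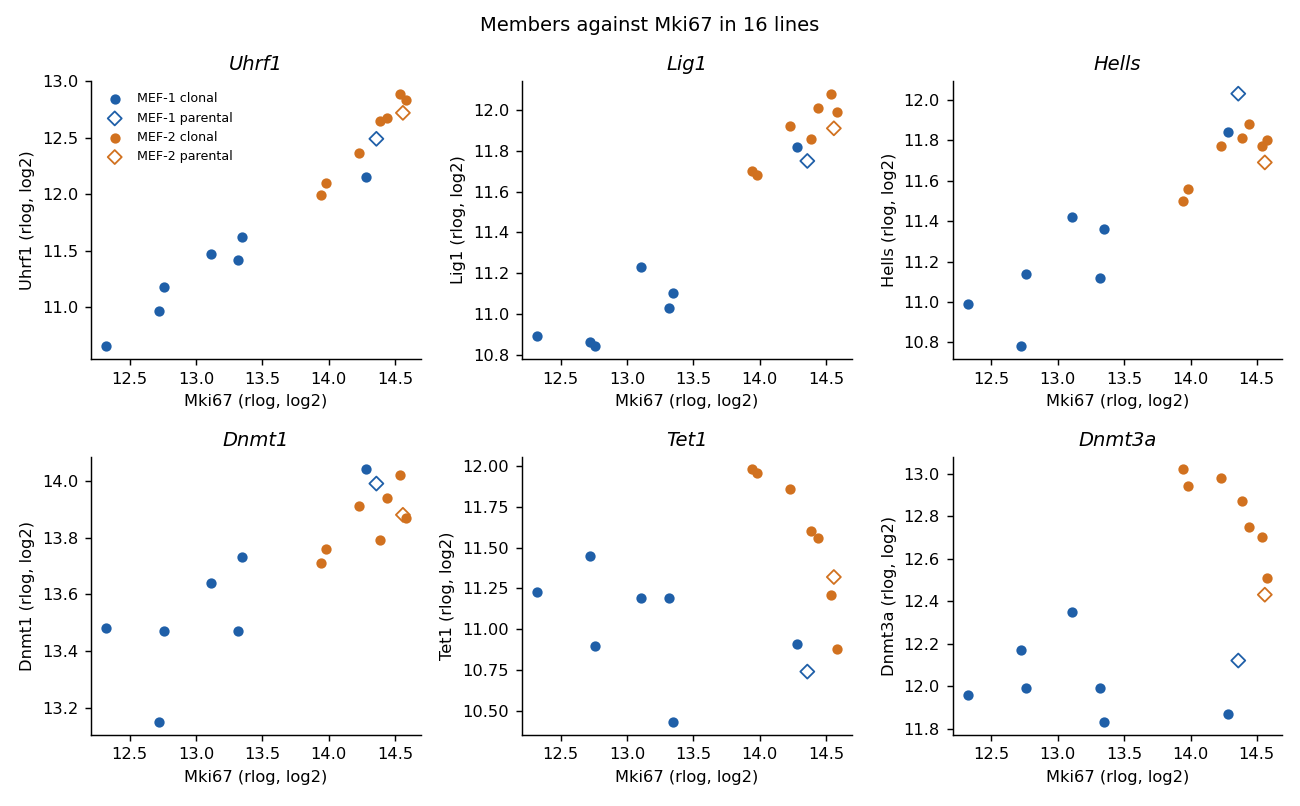
Level of 6 members (y axis, rlog, log2) against Mki67 (x axis, rlog, log2) in the 16 lines, with clonal lines as filled points and parental lines as open diamonds, blue for MEF-1 and orange for MEF-2. Uhrf1 rises with Mki67 in both sets, and Tet1 and Dnmt3a fall along the MEF-2 points, from 11.98 to 10.88 for Tet1.

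Pcna gave fewer and less stable relations. Of the 10 members, 2 were called on Pcna centred within its set, against 2.65% of all genes, 1.43% with a positive and 1.22% with a negative slope. Lig1 rose by 0.94 ± 0.20 per log2 unit of Pcna (limma adjusted p = 0.0294) and Hells by 0.90 ± 0.20 (0.0325). Both calls were lost without MEF-1 clonal line 2 (adjusted p = 0.0872 and 0.128), without MEF-1 clonal line 5 (0.162 and 0.188) and without MEF-2 clonal line 5 (0.0503 and 0.0546), where 0.0985%, 0.131% and 1.13% of all genes were called. The call of Hells was also lost without MEF-1 clonal line 4 (0.0553), MEF-2 clonal line 2 (0.0515) and MEF-2 clonal line 4 (0.0533). Within MEF-2, Lig1 and Pcna had r = 0.795 (exact permutation p = 0.00357, adjusted 0.0476, rho = 0.857, p = 0.0238), and 0.613 without clonal lines 3 and 6. Pcna was lowest in MEF-2 clonal line 3, at 12.58 against 12.94 to 13.13 in the other 6, and in that line its chromosome stood at -0.27. The correlation of Tdg with Pcna in MEF-2 was 0.938 (exact permutation p = 0.0192, adjusted 0.0561, rho = 0.393, p = 0.396), and -0.483 without clonal lines 3 and 6, so that it rests on those lines. Relative to the chromosome, 4 members were called on Pcna, namely Lig1, Hells, Dnmt1 and Uhrf1, against 2.57% of all genes.

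The difference between the sets was then fitted with a proliferation gene as a covariate. Mki67 hardly overlapped between the sets, since 6 MEF-1 lines were below every MEF-2 line, and this fit leans on a slope taken as common to both. With Mki67 in the fit, 3 members were called, against 24.1% of all genes, 10.8% higher and 13.3% lower in MEF-2. These were Dnmt3a (1.00 ± 0.14, limma adjusted p = 0.000168), Tet1 (1.00 ± 0.27, 0.0139) and Dnmt3b (0.52 ± 0.17, 0.041), none of which was called on Mki67. The difference of Uhrf1 fell from 1.15 to 0.16 ± 0.12 (adjusted p = 0.368), that of Lig1 to 0.18 ± 0.10 (0.233), and those of Hells (-0.06 ± 0.12, 0.745) and Dnmt1 (-0.13 ± 0.11, 0.468) changed sign. Pcna as the covariate left the same 3 members called, against 30.9% of all genes. With each gene relative to its chromosome and Mki67 as a covariate, 2 members were called, Tet1 (1.01 ± 0.26, adjusted p = 0.0127) and Dnmt3b (0.61 ± 0.18, 0.0252), against 24.4% of all genes, and Dnmt3a was at 0.39 ± 0.14 (0.0605). This combination was chosen after the data had been seen.

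**Figure D5:**
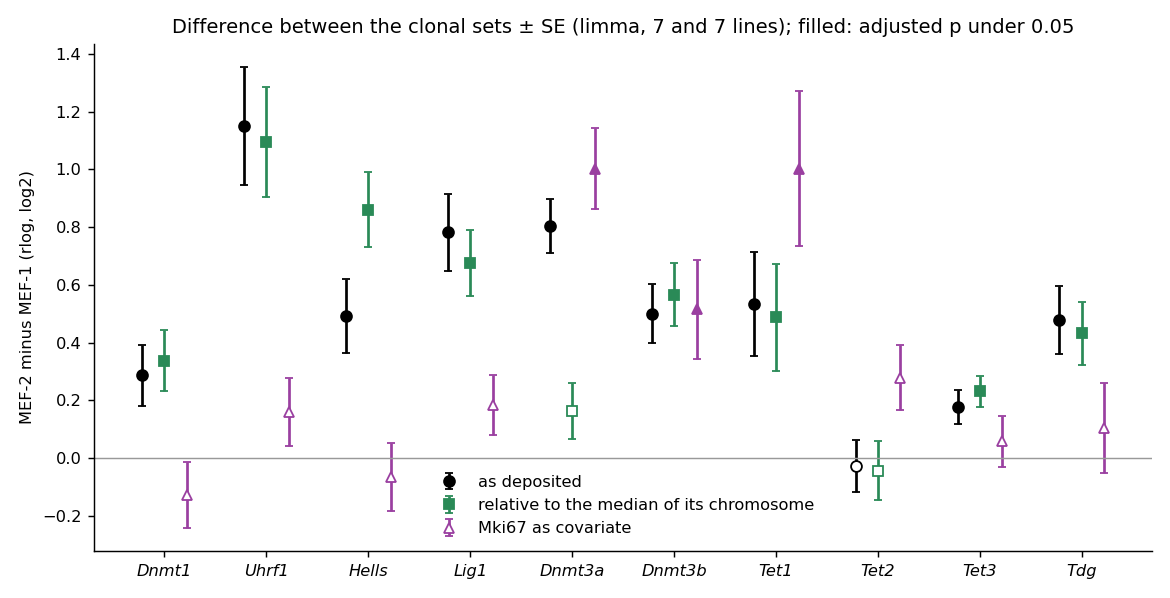
Difference of each member between the clonal sets (y axis, MEF-2 minus MEF-1, log2; bars are SE from limma, 7 and 7 lines), as deposited (circles), relative to the median of its chromosome (squares) and with Mki67 as a covariate (triangles). Filled symbols have an adjusted p under 0.05. Dnmt3a is filled as deposited (0.80) and with Mki67 (1.00) but open relative to chromosome 12 (0.16), and the triangles of Uhrf1, Lig1, Hells and Dnmt1 are open.

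Members also moved with one another. Over the 14 clonal lines, with values centred within each set, r was 0.938 between Dnmt1 and Hells, 0.912 between Hells and Lig1, 0.887 between Dnmt1 and Lig1 and 0.866 between Uhrf1 and Hells. Dnmt3a and Tet1 stood together at 0.826, and at 0.97 in the 7 MEF-2 lines. Negative values joined Uhrf1 with Tet2 (-0.77), Tet1 with Tdg (-0.752) and Hells with Tet2 (-0.749). These lines share libraries across genes, and the values are descriptions without a test. By the same measure over 15791 genes, the closest to Uhrf1 were Cdca8 (0.991), Ercc6l (0.989) and Fam111a (0.988), those to Lig1 Fignl1 (0.965), Ncaph2 (0.96) and Stmn1 (0.956), and those to Hells Phf5a (0.974), Esco2 (0.959) and Kif24 (0.959). Dnmt1 was closest to Dscc1 (0.955), Hells (0.938) and Lpcat3 (0.936). For Dnmt3a they were Obsl1 (0.923), Cdan1 (0.893) and Gm15559 (0.89), and for Dnmt3b Casq1 (0.872), Gm43331 (0.858) and Rai1 (0.831). Tet1 was closest to Sh3rf2 (0.956), Pid1 (0.955) and Smim1 (0.94), Tet2 to 2900060N12Rik (0.928), Gm37090 (0.922) and Pnisr (0.907), Tet3 to Igf2r (0.885), Nup160 (0.844) and Alcam (0.842), and Tdg to Pa2g4 (0.957), Hspd1 (0.955) and Amd1 (0.949).

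A wider list of 59 partners in DNA methylation and demethylation held readers, base excision repair enzymes, methyl donor metabolism and targeting factors. Dnmt3l, Dppa3 and Apobec2 averaged at or below 0 and were not tested. Of the other 56, 20 were higher and 10 lower in MEF-2, with a median difference of 0.12, where 22.6% of all genes were higher and 25.7% lower. Among the largest increases were those of Pclaf, a PCNA-binding factor that takes part in recruiting Dnmt1 (1.28 ± 0.25, limma adjusted p = 0.000699), the CXXC protein Cxxc5 (1.04 ± 0.10), Cdca7l (0.94 ± 0.14) and the isocitrate dehydrogenase Idh1 (0.62 ± 0.10). Among the largest decreases were those of the glycosylase Neil2 (-1.21 ± 0.29, limma adjusted p = 0.00316), the CXXC demethylases Kdm2b (-0.54 ± 0.08) and Kdm2a (-0.41 ± 0.05), and Uhrf2 (-0.44 ± 0.06), the paralogue of Uhrf1. Neil2 was a low gene, with means of 3.68 in the MEF-1 clonal lines (SD 0.76) and 2.48 in the MEF-2 clonal lines (SD 0.37). Uhrf2 and Kdm2a lie on chromosome 19 and Cdca7l on chromosome 12, whose medians moved the same way, and relative to these none of the 3 was called by limma (-0.07, -0.04 and 0.30, adjusted p = 0.32, 0.485 and 0.0706). Cxxc5 lies on chromosome 18, whose median was between -0.51 and -0.47 in MEF-1 clonal lines 1, 4 and 5 and between 0.11 and 0.14 in MEF-2, and was at 0.74 relative to it (limma adjusted p = 4.67e-07).

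On Mki67, 4 partners had a positive slope and 2 a negative one, out of 56, with a median of 0.06, where 4.16% of all genes were called. Pclaf was the steepest (1.08 ± 0.07, limma adjusted p = 4.12e-07), followed by the glycosylase Neil3 (0.79 ± 0.12), the histone methyltransferase Nsd2 (0.47 ± 0.08) and the corepressor Trim28 (0.27 ± 0.05). The methyl-CpG binding protein Zbtb4 (-0.36 ± 0.09, limma adjusted p = 0.0321) was among those that ran the other way. On Pcna, 2 partners rose and 2 fell, where 2.65% of all genes were called.

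For scale, replication and mitosis genes were counted in the same fits. Of 32 replication genes, 27 were higher and 1 lower in MEF-2, with a median of 0.60, and 21 had a positive slope on Mki67, with a median of 0.41. The largest differences were those of the ribonucleotide reductase subunits Rrm2 (1.86 ± 0.21) and Rrm1 (0.85 ± 0.14), Chaf1b (1.17 ± 0.15), Cdc6 (1.16 ± 0.20) and Mcm5 (0.96 ± 0.18), with E2f1 lower (-0.78 ± 0.10). Rrm2 lies on chromosome 12 and was at 1.22 ± 0.21 relative to its median. The steepest slopes on Mki67 were those of Tk1 (0.99 ± 0.08), Cdc6 (0.83 ± 0.09), Rrm2 (0.79 ± 0.12), Ccne1 (0.79 ± 0.17) and Mcm5 (0.72 ± 0.07). All 29 mitosis genes were higher in MEF-2, with a median of 0.97, led besides Mki67 by Kif20a (1.28 ± 0.22), Mybl2 (1.17 ± 0.24), Bub1 (1.15 ± 0.24) and Ccna2 (1.13 ± 0.22), and Kif20a, on chromosome 18, was at 0.98 ± 0.20 relative to its median. All 28 tested on Mki67 rose with it, with a median slope of 0.91, led by Plk1 (1.06 ± 0.07), Birc5 (1.00 ± 0.07), Ccnb1 (1.00 ± 0.07), Bub1 (1.00 ± 0.10) and Cenpe (0.99 ± 0.06). The slopes of Lig1, Hells and Dnmt1 lay near the replication median, and that of Uhrf1 between it and the mitosis median. On Pcna, 12 of 31 replication genes and none of the 29 mitosis genes were called by limma. E2F words stood in the windows of 40% of the 25 replication genes with a RefSeq window and in 4.17% of the 24 mitosis genes.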

How the data were processed

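Total RNA of 16 MEF lines was sequenced after ribosomal depletion with a stranded kit, 1 library per line. The authors trimmed reads with Trim Galore 0.6.0, quantified transcripts with Salmon 1.5.2 against mm10 and deposited log2 values, the rlog of DESeq2 1.24.0, one per gene and line. How transcripts were summed into genes, whether the transformation was blind to groups, and the strand setting are not given in the sources used here. Lines were grouped by the sample labels, and 0 columns of values lacked a sample. Read depth is unknown, so no counting interval is given. The median level of the 2855 genes with an average below -2.2 was -2.28 in every line. Whether these genes held reads is not known from rlog values. Its r against Mki67 was -0.129 in MEF-1 and -0.0644 in MEF-2 (7 lines each, exact permutation p = 0.79 and 0.887, adjusted over 6 relations 0.887 and 0.887, rho = 0.0721 and -0.107, exact p = 0.889 and 0.84).

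Genes were matched to GENCODE mouse release 21 (54200 found, 253 not). As the values are log2, limma 3.58.1 (R 4.3.3) was used, as planned for that unit, with a trended variance prior, no pseudocount, an average above 0 as the filter and Benjamini-Hochberg adjusted p under 0.05 as a call. A shrunken scale understates differences of low genes. Chromosome medians used protein-coding genes whose average exceeded 3.75, its percentile 40. Exact permutation tests were two-sided (scipy 1.17.1), and the smallest p they allow for 7 lines is 0.000198. The plain set difference, the common slope, the slope difference between sets and the permutation test were tried on simulated data. Fits with a covariate, relative to the chromosome or under the other alternatives were not. Bisulfite and other assays of these lines were not analysed here. The members, lists and motif words were chosen with earlier results of these data known. Named genes are the members, Mki67, Pcna, the up to 5 partner, replication and mitosis genes of largest difference or slope in each direction among those called, and the 3 genes most alike each member. Some genes that this rule names are not reported here. Alternatives were other filters, centring, variance settings, chromosome medians, proliferation covariates, the replicate block, parental lines included and each line left out.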

Additional observations from a re-analysis of the deposited data

Results flagged for a closer look

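In 24 sets of 7 clonal lines (10 members, Mki67 and Pcna in MEF-1 and MEF-2), 3 held a line whose gap to its nearest neighbour was a large share of the whole range, above Dixon's critical value for 7 values. Chance flags about 1 in 20 such sets, or 1.2 of 24. Lig1 was at 11.82 in MEF-1 clonal line 5, with the nearest line at 11.23. Mki67, Uhrf1, Dnmt1 and Hells were highest in the same line. Tet3 was at 13.61 in MEF-2 clonal line 3, with the nearest at 13.81, and Pcna was at 12.58 in that line, with the nearest at 12.94. What sets these lines apart was not tested.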

How the results depend on the processing

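Of 795 values of members recomputed under alternatives, 709 kept their direction and their side of the threshold, 45 lost their call, 15 gained one and 26 changed sign, the last in members near 0 or under a covariate. The number of members called between the sets was 8 to 9 when each line was left out. It was 3 with Mki67 as a covariate (5145 genes) and 3 with Pcna (6577 genes), and 2 with Mki67 and own chromosome together (5192 genes), a combination chosen after seeing the data. Dnmt1 then became -0.13, -0.034 and -0.091, Tet2 0.28, 0.21 and 0.29, and Hells -0.064 with Mki67. Tet2 also turned to 0.0029 with lines centred on their autosomal median, 0.0031 with array weights and 0.0012 with parental lines counted, and ranged from -0.076 to 0.022 with each line left out. The cause was not tested.

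On Mki67, between 1 and 4 members and between 537 and 957 genes were called with each line left out, 499 genes with array weights and 2502 with parental lines counted. Dnmt3b ranged from -0.070 to 0.035 and was 0.021 with lines centred, 0.057 with quantile normalization and 0.068 with parental lines. On Pcna, between 0 and 4 members and between 21 and 939 genes were called with each line left out. Without a filter 1 member and 328 genes were called, with quantile normalization 1 and 343, and with no variance trend 1 and 366. With lines centred they were 5 and 908, with the replication list in place of Pcna 5 and 1197, with array weights 358 genes and relative to the own chromosome 4 members. Dnmt3b on Pcna was -0.12 relative to its chromosome, -0.073 on the replication list, and ranged from -0.044 to 0.074 with each line left out. Slopes that differed between sets numbered 0 with Pcna in place of Mki67 and from 0 to 235 with each line left out, and 3 of 40 correlations were called relative to the own chromosome.

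Clone numbers were shared between the sets but did not pair the lines. The correlation of same-numbered deviations ran from -0.155 to 0.166 over 7 pairs, and 0 of 7 lines correlated best with their own number. With the replicate block, 1 member and 90 genes were called on Mki67, Dnmt3b was at 0.13, and 9795 genes were called between the sets. Read depth is unknown, so that what depth limits could not be assessed.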

Other observations

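Cell cycle inhibitors and p53 pathway genes differed between the sets in both directions. Of 10 such genes, 6 were higher and 4 lower in MEF-2 than in MEF-1 clonal lines, where 22.6% of all genes were higher and 25.7% lower, with a range from -5.05 (Cdkn1c) to 2.61 (Cdkn1a) on the log2 scale, and 1 was called on Mki67, Trp53, with a slope of 0.26 ± 0.06 (limma adjusted p = 0.0298), where 4.16% of all genes were called. Cdkn1a and Cdkn1c were named here for being the extremes.

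Promoter windows of mitosis genes held other letters than those of the members. The words TTTGAA or TTCGAA, the core of the cell cycle homology region, stood in the windows of 75% of 24 mitosis genes, 24% of 25 replication genes, 20% of the 10 members and 21.7% of all 27025 genes. CCAAT stood in 79.2%, 56%, 40% and 41.1%. In the 250 bases before the start alone, TTTGAA or TTCGAA stood in 33.3%, 24%, 20% and 19.6%, in the same order. CCAAT stood there in 79.2%, 56%, 40% and 37.5%. These are counts of letters and were not tested.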
